A study of Mus musculus with 10 samples.

Results

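Expression of 10 genes of polarized membrane trafficking and endocytosis was measured by RNAseq in the mouse first pharyngeal arch (PA1), with and without the transcription factor GRHL2. The genes were the AP-1 adaptor subunits *Ap1m1* and *Ap1m2*, the epsins *Epn1*, *Epn2* and *Epn3*, the small GTPases *Rab25* and *Rab11a*, their effector *Rab11fip1*, the motor *Myo5b* and the raft protein gene *Mal2*. They are 10 of the 22114 protein-coding genes counted, and all 10 were measured above the filter on low counts. The set was drawn up by name, to place epithelial paralogues beside general ones, and was selected on the measured fold changes of *Ap1m2* and *Epn3*, which were much lower in *Grhl2-/-* than in wild-type PA1 in these same libraries. The comparison of genotypes is therefore given for the 10 genes as a description, with levels, fold changes and intervals but no p-values, and where the threshold applied to all genes is mentioned for them it serves as a label and not as evidence. Each library was made from the PA1 of a single male embryo at E10.5, and 5 wild-type and 5 *Grhl2-/-* embryos were used, all labelled as C57BL/6 (the *Grhl2* line had been back-crossed to C57BL/6J). The *Grhl2-/-* embryos carried 2 germline null alleles, so that GRHL2 was missing from all tissues of the embryo and not only from the arch epithelium, and the line was kept by crossing heterozygotes. Whole arches were sequenced, so the thin surface epithelium was measured together with mesenchyme, vessels, blood and nerve.

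Epithelial cells keep apical and basolateral membranes distinct by sorting cargo at the trans-Golgi network and in recycling endosomes. AP-1 is a clathrin adaptor whose mu subunit recognizes tyrosine-based sorting signals. The mu subunit encoded by *Ap1m1* is found in most cells, whereas that of *Ap1m2* defines the epithelial form, AP-1B, which directs proteins to the basolateral membrane. Epsins bind ubiquitinated cargo, clathrin and membrane lipid during endocytosis. Rab11-family GTPases mark recycling endosomes, and RAB25 is the member found mainly in epithelia. They bind FIP effectors such as RAB11FIP1 and the myosin Vb motor encoded by *Myo5b*. MAL2 carries cargo across epithelial cells to the apical surface.

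Of the reads in each arch, between 22188454 and 28801378 were counted on protein-coding genes, so 3 reads corresponded to between 0.104 and 0.136 CPM (counts relative to library size, scaled by the trimmed mean of M-values). *Grhl2* itself had 35.6 ± 3.29 CPM (SD, n = 5) in wild-type and 4.53 ± 1.45 in *Grhl2-/-* PA1, and was lower in all 5 mutant arches. Among markers of the tissue, 7 of 12 epithelial genes were called lower by limma-voom (*Krt5*, *Cdh1*, *Epcam*, *Cldn6*, *Cldn7*, *Esrp1* and *Itgb4*). *Krt8*, *Krt14*, *Krt18*, *Krt19* and *Trp63* were not called. *Krt14* was at 9.60 and 11.9 CPM in wild-type and *Grhl2-/-* PA1, *Krt19* at 9.68 and 9.90, and *Trp63* at 73.1 and 61.9. The summed level of the 12 was 341 to 455 CPM in wild-type and 188 to 279 CPM in *Grhl2-/-* arches. Mesenchymal markers summed to 1398 to 1774 CPM and 1149 to 1373 CPM, with 1 of 8 called lower. Sensory neuron markers varied within genotypes, from 38.4 to 766 CPM in wild-type and 259 to 959 CPM in *Grhl2-/-* arches, with wild-type arches 1 and 2 at 43.3 and 38.4. Endothelial markers summed to 293 to 329 and 324 to 383 CPM, blood markers to 3642 to 6190 and 2865 to 3871 CPM, and muscle progenitor markers to 12.3 to 20.1 and 13.5 to 22.5 CPM, and no gene of these 3 lists was called. No marker in the 6 lists was at 0 in all arches.

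The 10 genes fell into 2 sets. *Ap1m2*, *Epn3*, *Rab25* and *Mal2* were at 7.29%, 12.6%, 7.41% and 17.4% of their wild-type mean CPM in *Grhl2-/-* PA1, and for each of them every mutant arch lay below every wild-type arch. *Ap1m1*, *Epn1*, *Epn2*, *Rab11a*, *Rab11fip1* and *Myo5b* had overlapping genotypes. At a false discovery rate (FDR) below 0.01, the first 4 of the 10 were called lower and the other 6 were not called in either direction. Among all 14561 genes tested, 1.09% were called lower and 0.879% higher, 4.66% had all mutant arches below all wild-type arches and 4.22% had them above. Since the set was chosen with this contrast in view, nothing is read from the difference between these shares. In whole arches, fewer epithelial cells and less RNA of a gene per epithelial cell cannot be told apart.

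**Figure D1:**
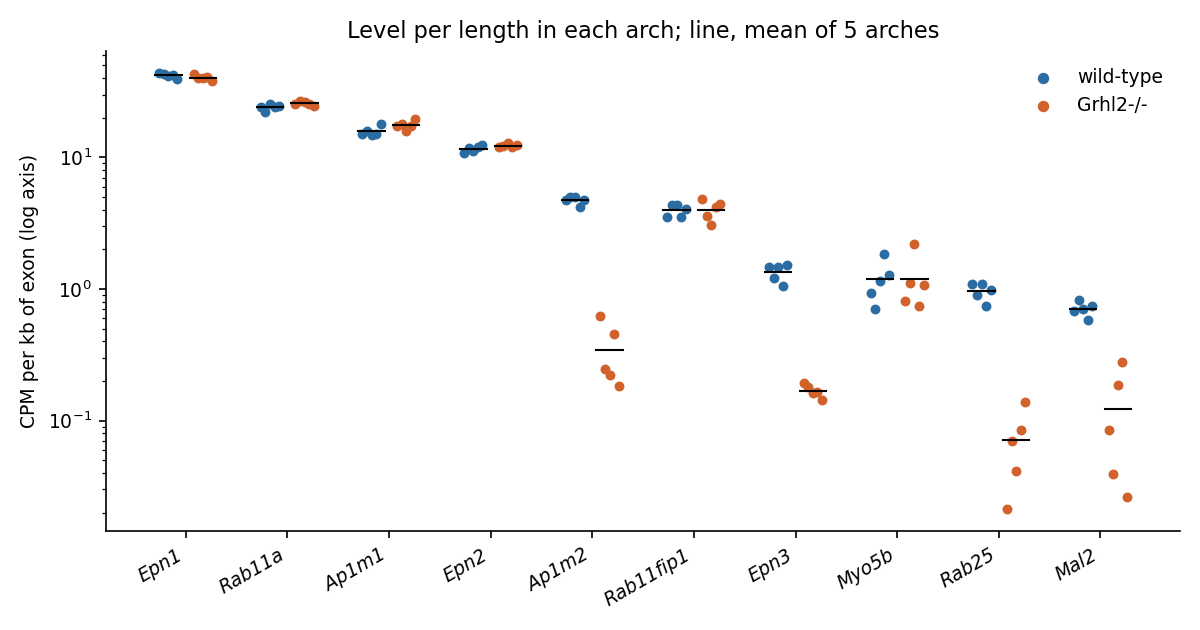
Level of each of the 10 genes per kb of exon in each arch, on a log axis (CPM per kb), with wild-type arches in blue, *Grhl2-/-* arches in orange and a black line at the mean of 5 arches. Genes are ordered by their wild-type mean, from *Epn1* at 42.1 to *Mal2* at 0.707 CPM per kb, and the 2 genotypes are separate for *Ap1m2*, *Epn3*, *Rab25* and *Mal2*.

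Wild-type levels were compared between genes after division by the length of exon in each gene. *Epn1* was highest, at 42.1 ± 1.64 CPM per kb (SD, n = 5), followed by *Rab11a* at 24.2 ± 1.18, *Ap1m1* at 15.7 ± 1.28 and *Epn2* at 11.6 ± 0.605, and these 4 did not overlap one another across arches. *Ap1m2* (4.74 ± 0.339 CPM per kb) and *Rab11fip1* (3.96 ± 0.437) came next, and their arches overlapped. The least abundant were *Epn3* (1.35 ± 0.203), *Myo5b* (1.19 ± 0.435), *Rab25* (0.960 ± 0.145) and *Mal2* (0.707 ± 0.0909), and each overlapped its neighbour in this order. Of the 10 genes, *Myo5b* varied most among wild-type arches, with a coefficient of variation of 36.7%, against 3.90% for *Epn1* and 15.1% for *Epn3* and *Rab25*.

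The 2 mu subunits of AP-1 were set side by side first. *Ap1m2* (ENSMUSG00000003309, chr9:21294275-21312337 on the minus strand of GRCm38) had 328, 437, 454, 362 and 369 reads in wild-type arches 1 to 5. In *Grhl2-/-* arches 1 to 5 it had 55, 20, 20, 40 and 15 reads. The highest mutant arch was thus far below the lowest wild-type arch, and no mutant arch was at 0. Wild-type arches averaged 14.9 ± 1.07 CPM and mutant arches 1.09 ± 0.589 CPM, a log2 fold change of -3.90 (SE 0.245, 95% interval -4.43 to -3.36). Over the summed reads of each genotype, 1950 in wild-type and 150 in *Grhl2-/-*, wild-type was 13.6-fold higher, with an exact counting interval of 11.5 to 16.2 that leaves out the spread between embryos.

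*Ap1m1* (ENSMUSG00000003033, chr8:72240018-72257385, plus strand), the general mu subunit, had 1057, 1393, 1353, 1318 and 1412 reads in wild-type arches. The *Grhl2-/-* arches had 1553, 1470, 1454, 1559 and 1600. All mutant read numbers were above all wild-type ones, but after scaling to library size the genotypes overlapped, at 47.2 to 57.0 CPM and 50.3 to 61.8 CPM. The means were 50.04 ± 4.06 and 56.0 ± 4.10 CPM, a log2 fold change of 0.16 (SE 0.0651, 95% interval 0.02 to 0.30). *Ap1m2* accordingly made up 23.2% ± 1.82 (SD, n = 5) of the 2 mu transcripts per kb in wild-type and 1.94% ± 1.04 in *Grhl2-/-* arches.

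The residual *Ap1m2* differed between mutant arches. It was 1.96 and 1.42 CPM in *Grhl2-/-* arches 1 and 4, and 0.775, 0.692 and 0.579 CPM in arches 2, 3 and 5. Arches 1 and 4 also had the most reads of the simple epithelial keratins *Krt8* and *Krt18* together, at 3742 and 3421, against 2008, 2119 and 2166 in the other 3. Sensory neuron markers split the mutant arches in the same way, at 259 and 286 CPM in arches 1 and 4. They summed to 713, 959 and 700 CPM in arches 2, 3 and 5. The part of epithelial or neuronal content in the *Ap1m2* difference was not tested.

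Of the epsins, *Epn3* (ENSMUSG00000010080, chr11:94489599-94499974, minus strand) was both the rarest and the one that differed between genotypes. It had 132, 137, 170, 118 and 154 reads in wild-type arches, and 22, 19, 19, 19 and 15 in *Grhl2-/-* arches. The mutant arches lay within a few reads of one another, unlike those of *Ap1m2*. The averages were 5.47 ± 0.827 CPM for wild-type and 0.687 ± 0.0784 CPM for mutant arches, a log2 fold change of -2.95 (SE 0.195, 95% interval -3.37 to -2.52). Summed over arches, 711 wild-type and 94 mutant reads gave a 7.91-fold ratio (exact counting interval 6.37 to 9.91).

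The broadly expressed epsins overlapped between genotypes. *Epn1* (ENSMUSG00000035203, chr7:5080235-5098178, plus strand) had 2725, 3343, 3357, 3268 and 2754 reads in wild-type and 3385, 2881, 3270, 3224 and 2763 in *Grhl2-/-* arches. Its level was 118.2 ± 4.61 and 113.4 ± 5.10 CPM, and the 95% interval of its log2 fold change was -0.15 to 0.03. *Epn2* (ENSMUSG00000001036, chr11:61517249-61579687, minus strand) had 1243, 1709, 1686, 1719 and 1597 reads in wild-type and 1759, 1640, 1930, 1758 and 1676 in *Grhl2-/-* arches. Its level was 60.7 ± 3.16 and 64.1 ± 1.75 CPM, with an interval of -0.02 to 0.17. The share of *Epn3* in the 3 epsins per kb was 2.45% ± 0.394 in wild-type and 0.319% ± 0.0291 in *Grhl2-/-* PA1 (SD, n = 5), and *Epn1* and *Epn2* made up the rest.

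*Rab25* (ENSMUSG00000008601, chr3:88542029-88548300, minus strand) was left with few reads in mutant arches. It had 40, 42, 52, 34 and 41 reads in wild-type arches, and 1, 3, 2, 4 and 6 in *Grhl2-/-* arches. Every wild-type arch was well above 3 reads, whereas 3 of the 5 mutant arches were at or below it. The means were 1.61 ± 0.243 and 0.119 ± 0.0753 CPM, and the fitted log2 fold change was -3.75 (SE 0.358, 95% interval -4.53 to -2.97). The 209 wild-type and 16 mutant reads gave a ratio of 13.7, whose exact counting interval of 8.21 to 24.3 is the widest of the 4 genes.

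*Rab11a* (ENSMUSG00000004771, chr9:64715299-64737758, minus strand), the ubiquitous recycling GTPase, had 1594, 1855, 2193, 1990 and 1819 reads in wild-type and 2150, 2068, 2291, 2123 and 1914 in *Grhl2-/-* arches. Its level was 72.3 ± 3.54 and 77.1 ± 2.59 CPM, a log2 fold change of 0.09 (SE 0.0434). *Rab11a* exons overlap *Gm47308*, annotated as a miRNA on the same strand, over 107 bases, which stranded libraries do not tell apart. Among *Rab25*, *Rab11a* and *Rab11b*, which form the Rab11 family, *Rab25* held 3.16% ± 0.430 of the summed level per kb in wild-type and 0.232% ± 0.151 in *Grhl2-/-* arches (SD, n = 5). This share depended on the exon lengths used, and without length correction it was 1.52% and 0.111%. *Rab11b*, which is not among the 10 genes, had 31.8 ± 2.61 and 30.6 ± 1.73 CPM (limma-voom, FDR 0.622).

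**Figure D2:**
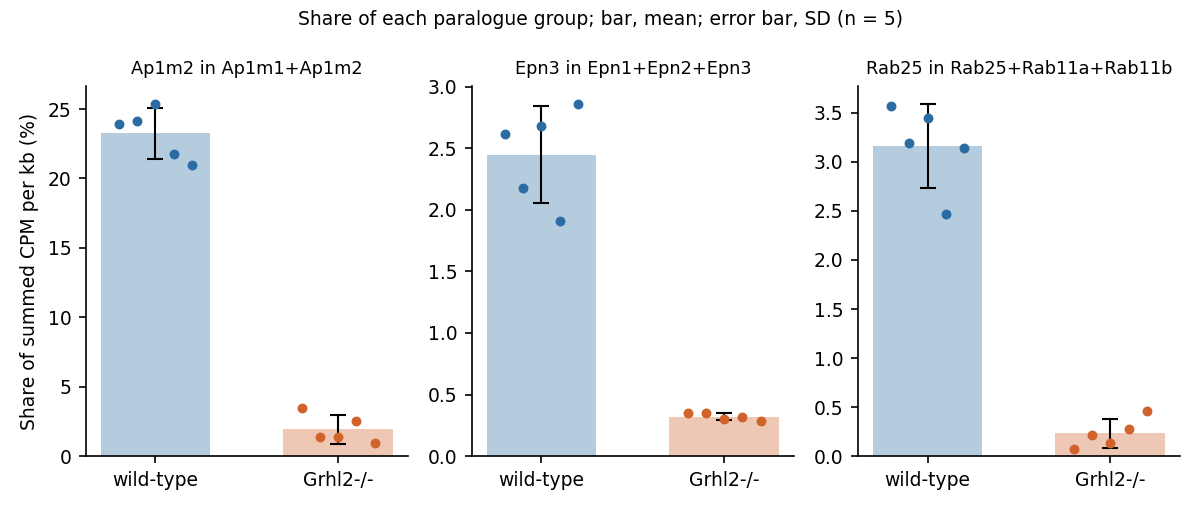
Share of *Ap1m2* in the AP-1 mu transcripts, of *Epn3* in the epsins and of *Rab25* in the Rab11 family, as a percentage of summed CPM per kb, with 1 point per arch, bars at the mean and error bars of 1 SD over 5 arches. The mean share was 23.2% in wild-type and 1.94% in *Grhl2-/-* PA1 for *Ap1m2*, 2.45% and 0.319% for *Epn3*, and 3.16% and 0.232% for *Rab25*.

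Sequence before the transcription start was examined for the genes with an entry in the RefSeq promoter set of GRCm38.p6, which covered 5 of the 10 (*Ap1m2*, *Rab25*, *Rab11a*, *Epn1* and *Epn2*). The 120 bases before the start are shown for *Ap1m2* and *Rab25*, which were low in *Grhl2-/-* PA1, and for *Rab11a* and *Epn2*, which were not. All 4 lie on the minus strand and are written 5′ to 3′, at chr9:21312334-21312453, chr3:88548280-88548399, chr9:64737757-64737876 and chr11:61579688-61579807. Capitals mark matches to CACCTG or its reverse complement CAGGTG, the E-box bound by ZEB and SNAIL repressors, and to AACCTGTT or its reverse complement AACAGGTT, a variant of the GRHL recognition motif.
*Ap1m2*: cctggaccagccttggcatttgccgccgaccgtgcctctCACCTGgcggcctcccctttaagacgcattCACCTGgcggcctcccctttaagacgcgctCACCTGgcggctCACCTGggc
*Rab25*: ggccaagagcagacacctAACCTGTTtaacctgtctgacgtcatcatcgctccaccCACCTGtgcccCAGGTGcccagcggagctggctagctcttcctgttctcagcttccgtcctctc
*Rab11a*: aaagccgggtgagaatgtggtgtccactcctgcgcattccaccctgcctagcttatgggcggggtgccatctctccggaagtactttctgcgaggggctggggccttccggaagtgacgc
*Epn2*: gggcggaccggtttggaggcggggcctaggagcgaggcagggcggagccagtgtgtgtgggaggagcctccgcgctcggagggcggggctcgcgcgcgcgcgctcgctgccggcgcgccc

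Motifs were counted on both strands over the whole RefSeq windows of 300 bases, 250 before and 50 after the start, and were picked after these sequences had been seen. The *Ap1m2* window held 4 E-boxes, which began 81, 51, 21 and 9 bases before the start. The E-boxes at 81 and 51 bases begin copies of the same stretch of sequence, so the 4 are not separate occurrences. Among 32817 mouse promoter windows of the same length, 20.2% held at least 1 E-box and 18 windows (0.0548%) held at least 4, a share that does not allow for such repeats. *Rab25* held 2 E-boxes that began 64 and 53 bases before the start, and 2.88% of windows held at least 2. It also held AACCTGTT at 102 bases before the start, and 0.957% of windows had this motif on either strand. The E-box and GRHL matches did not overlap. The palindrome AACCGGTT, the GRHL core motif, was in none of the 5 genes' windows and in 0.146% of all windows, and the windows of *Epn1*, *Epn2* and *Rab11a* held none of these motifs. These matches are letters in a window, and binding was not measured in the libraries.

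The effector and the motor of the Rab11 pathway overlapped between genotypes. *Rab11fip1* (ENSMUSG00000031488, chr8:27138773-27174646, minus strand) had 833, 1308, 1357, 1039 and 1085 reads in wild-type and 1461, 991, 948, 1266 and 1245 in *Grhl2-/-* arches. Scaled to library size, the lowest and the highest of the 10 arches were both *Grhl2-/-* ones, at 32.8 and 52.1 CPM. Its mean level was 42.8 ± 4.72 and 43.3 ± 7.71 CPM, with a 95% interval of -0.27 to 0.27 on the log2 scale. Its exons overlap an antisense gene, 4933416M07Rik, over 452 bases, and the libraries were stranded.

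*Myo5b* (ENSMUSG00000025885) was the most variable of the 10 genes in wild-type PA1. It had 202, 190, 325, 499 and 309 reads in wild-type arches, and 222, 278, 615, 205 and 271 in *Grhl2-/-* arches. The means were 11.6 ± 4.25 and 11.5 ± 5.65 CPM, and the 95% interval of the log2 fold change, -0.72 to 0.63, was the widest of the 6 genes with overlapping genotypes. *Myo5b* was highest in *Grhl2-/-* arch 3 (21.3 CPM) and wild-type arch 4 (18.1 CPM), the 2 arches with the most sensory neuron transcripts (959 and 766 CPM summed over 10 markers). It was 9.18 and 6.83 CPM in wild-type arches 1 and 2, where these markers summed to 43.3 and 38.4 CPM. The order was not the same throughout, since *Grhl2-/-* arches 2 and 5 had 713 and 700 CPM of these markers but 10.8 and 10.46 CPM of *Myo5b*, less than the 11.3 and 12.5 CPM of wild-type arches 3 and 5, whose markers summed to 480 and 489 CPM. Without wild-type arches 1 and 2 the log2 fold change was -0.37 in place of -0.04. The part of sensory neurons in the *Myo5b* level was not tested.

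**Figure D3:**
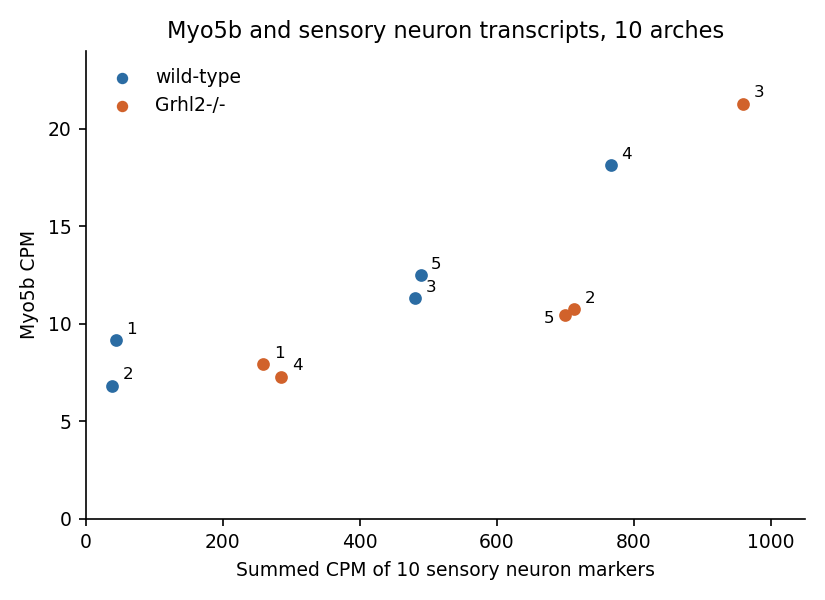
*Myo5b* level (CPM) against the summed CPM of 10 sensory neuron markers in each of the 10 arches, wild-type in blue and *Grhl2-/-* in orange, with the number of the arch beside each point. *Grhl2-/-* arch 3 and wild-type arch 4 are highest on both axes, at 21.3 and 18.1 CPM of *Myo5b*.

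*Mal2* (ENSMUSG00000024479, chr15:54571192-54602847, plus strand) had the lowest level per kb of the 10 genes in wild-type PA1. It had 44, 68, 60, 47 and 54 reads in wild-type arches, and 7, 3, 16, 23 and 2 in *Grhl2-/-* arches. Mutant arches differed widely among themselves, and arches 3 and 4 kept the most. The means were 2.08 ± 0.268 and 0.363 ± 0.316 CPM, and the log2 fold change was -2.88 with an SE of 0.436, the largest of the 4 genes that were lower (95% interval -3.83 to -1.92). The 273 wild-type and 51 mutant reads gave a ratio of 5.60 (exact counting interval 4.14 to 7.70). *Mal2* was also the 1 of these 4 genes whose call was lost when a single arch was left out, *Grhl2-/-* arch 2, and when wild-type arches 1 and 2 were left out together, at log2 fold changes of -2.63 and -2.83.

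The 10 genes were also expressed relative to epithelial transcripts, and the outcome depended on which transcripts were used. *Krt8* and *Krt18*, which mark simple epithelium, did not pass the test between genotypes (36.8 ± 8.31 and 28.4 ± 8.33 CPM, FDR 0.203, for *Krt8*, and 71.8 ± 15.4 and 69.6 ± 19.4 CPM, FDR 0.848, for *Krt18*, limma-voom). Per 1000 reads of both keratins, *Ap1m2* had 140.8 ± 21.6 reads in wild-type and 10.54 ± 2.88 in *Grhl2-/-* PA1 (SD, n = 5), so 7.49% was left. *Epn3* had 52.0 ± 12.2 and 7.36 ± 1.78 reads, or 14.2% left. *Rab25* went from 15.2 ± 3.30 to 1.33 ± 0.923, or 8.75% left, and *Mal2* from 19.6 ± 2.92 to 3.71 ± 3.16, or 18.9% left. All 4 were slightly less low on this scale than in CPM, and their genotypes did not overlap. Per keratin read, the remaining 6 genes were at 108% to 127% of their wild-type mean. Per read of all 12 epithelial markers, 7 of which were themselves called lower, 12.2% of *Ap1m2*, 22.4% of *Epn3*, 13.6% of *Rab25* and 30.2% of *Mal2* was left, still without overlap. Per read of *Cdh1* and *Epcam*, which were at 44.2 and 54.1 CPM in wild-type and 8.16 and 9.80 CPM in *Grhl2-/-* PA1, the values were 37.9%, 72.4%, 46.6% and 92.9%, and only *Ap1m2* kept separate genotypes among the 4. Per read of the 12 markers the other 6 genes were at 171% to 199.7%, and all but *Myo5b* had every mutant arch above every wild-type arch. Per read of *Cdh1* and *Epcam* they were at 554% to 653%, and all 6 did. Both denominators were lower in *Grhl2-/-* PA1, so a gene unchanged in CPM rises on these scales, and nothing is read from this separation. The share of all genes separated on these scales was not counted. All denominators used here, the keratins included, were chosen after the data were seen, and none of them measures the number of epithelial cells.

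**Figure D4:**
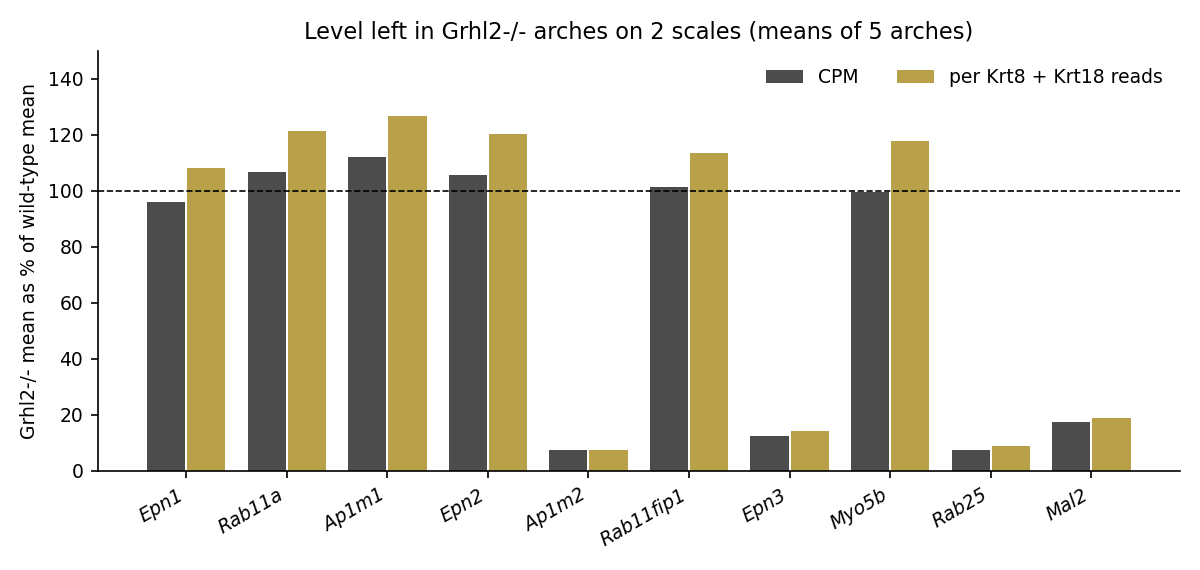
Mean level in *Grhl2-/-* arches as a percentage of the wild-type mean for each of the 10 genes, in CPM (grey bars) and per *Krt8* and *Krt18* read (yellow bars), each from 5 arches per genotype, with a dashed line at 100%. *Ap1m2*, *Epn3*, *Rab25* and *Mal2* stand between 7.29% and 18.9% on both scales. On scales not drawn, they were at 12.2% to 30.2% per read of the 12 epithelial markers and 37.9% to 92.9% per *Cdh1* and *Epcam* read.

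The genes whose log2 CPM followed *Ap1m2* and *Epn3* most closely over the 10 arches were listed among 12691 genes with a mean of at least 1 CPM. Those nearest to *Ap1m2* were *Epcam* (Pearson r = 0.996), *Cdh1* (0.992), *St14* (0.991), *Cldn6* (0.988) and *Esrp1* (0.986), which encode an epithelial adhesion molecule, E-cadherin, the membrane protease matriptase, a tight junction claudin and an epithelial splicing regulator. Those nearest to *Epn3* were *Trim29* (0.995), *Fermt1* (0.993), *AI661453* (0.992), *Fat2* (0.991) and *Plch2* (0.989). These correlations describe 10 arches that share the difference between genotypes. With the genotype means subtracted, 1 of the 5 genes nearest to *Ap1m2* (*Esrp1*) and 0 of those nearest to *Epn3* stayed on the list. With a prior count of 2 in place of 0.5, 4 and 3 stayed, as *Grhl2* replaced *Esrp1* for *Ap1m2*, and *Tmprss13* and *Tmem54* replaced *Fat2* and *Plch2* for *Epn3*.

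The partners with which the 10 gene products work were counted in 6 lists of 121 genes, of which 117 were tested with limma-voom, with FDR adjusted over all 14561 genes. In these lists 2 genes were lower, 1 was higher and 114 did not pass, which is near the 1.09% lower and 0.879% higher of all genes tested, and their median log2 fold change was 0.01, as was that of all genes tested. Among the 6 other subunits of AP-1, 1 was higher and 5 were not called. This was *Ap1s2*, a small sigma subunit, at 27.3, 29.1, 30.3, 29.99 and 31.02 CPM in wild-type and 35.2, 37.97, 35.7, 35.3 and 37.9 CPM in *Grhl2-/-* arches. The genotypes did not overlap, and the log2 fold change was 0.30 (SE 0.0474, FDR 0.00413). The call was lost in 6 of the 10 fits that left out 1 arch (FDR 0.00694 to 0.0171 over the 10) and without wild-type arches 1 and 2 (FDR 0.0633), while the log2 fold change was 0.27 to 0.32 over the 10 and 0.24 without those 2 arches. *Ap1g1* and *Ap1b1*, the large subunits that pair with both mu chains, had 209.8 ± 3.95 and 201.4 ± 7.29 CPM (FDR 0.266) and 101.2 ± 4.65 and 99.4 ± 4.38 CPM (FDR 0.748).

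No gene was called by limma-voom in 4 lists, which hold the general sorting, coat and recycling machinery. An unadjusted p below 0.05 was found for 4146 of all 14561 genes tested, and the counts that follow are no higher than that share except in the last of the 4 lists, at 10 of 30 genes. Of 20 subunits of AP-2 to AP-5, 5 had such a p, and *Ap2a2*, a large subunit of the endocytic adaptor, had the lowest (log2 fold change 0.13, FDR 0.0810). Of 10 Golgi sorting partners 2 had such a p, led by the AP-1 binding protein gene *Synrg* (0.31, FDR 0.0951). edgeR and DESeq2 called no gene of these 2 lists. Of 32 genes for clathrin and endocytic accessory proteins 7 had such a p, led by *Hip1r*, which links clathrin coats to actin, at 27.0 ± 2.24 and 21.1 ± 1.70 CPM (-0.35, FDR 0.0193). Of 30 recycling endosome and exocyst genes 10 had such a p, led by the exocyst subunit *Exoc4* (0.22, FDR 0.0519). edgeR called none in these 2 lists, whereas DESeq2 called *Hip1r* lower and *Hip1* higher in the first and *Exoc4* higher in the second.

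Apical delivery and the MARVEL family, the list nearest to *Mal2* in function, held both lower genes among 19 tested of 23 listed, beside 1.09% of all genes tested, and nothing particular to the list is read from this count. *Exph5*, which encodes an effector of RAB27 on exocytic vesicles, had 281, 350, 304, 296 and 267 reads in wild-type and 119, 121, 151, 172 and 94 in *Grhl2-/-* arches. Every mutant arch was below every wild-type arch, and the means were 11.5 ± 1.08 and 4.78 ± 0.950 CPM (log2 fold change -1.27, SE 0.127, FDR 0.000172). *Rab27b*, the GTPase gene itself, had 173, 223, 287, 193 and 190 reads in wild-type and 165, 113, 124, 150 and 93 in *Grhl2-/-* arches, with means of 8.11 ± 1.12 and 4.70 ± 0.910 CPM (-0.80, SE 0.141, FDR 0.00772). The *Rab27b* call was lost in 8 of the 10 fits without 1 arch (FDR 0.00560 to 0.0255 over the 10, log2 fold change -0.89 to -0.72) and without wild-type arches 1 and 2 (FDR 0.0501, log2 fold change -0.83), whereas that of *Exph5* was kept in all of these. Its paralogue *Rab27a* had 6.41 ± 0.533 and 6.61 ± 0.339 CPM (FDR 0.744), and the *Mal2* relatives *Mal* and *Mall* were under 1 CPM in both genotypes (FDR 0.715 and 0.374).

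**Figure D5:**
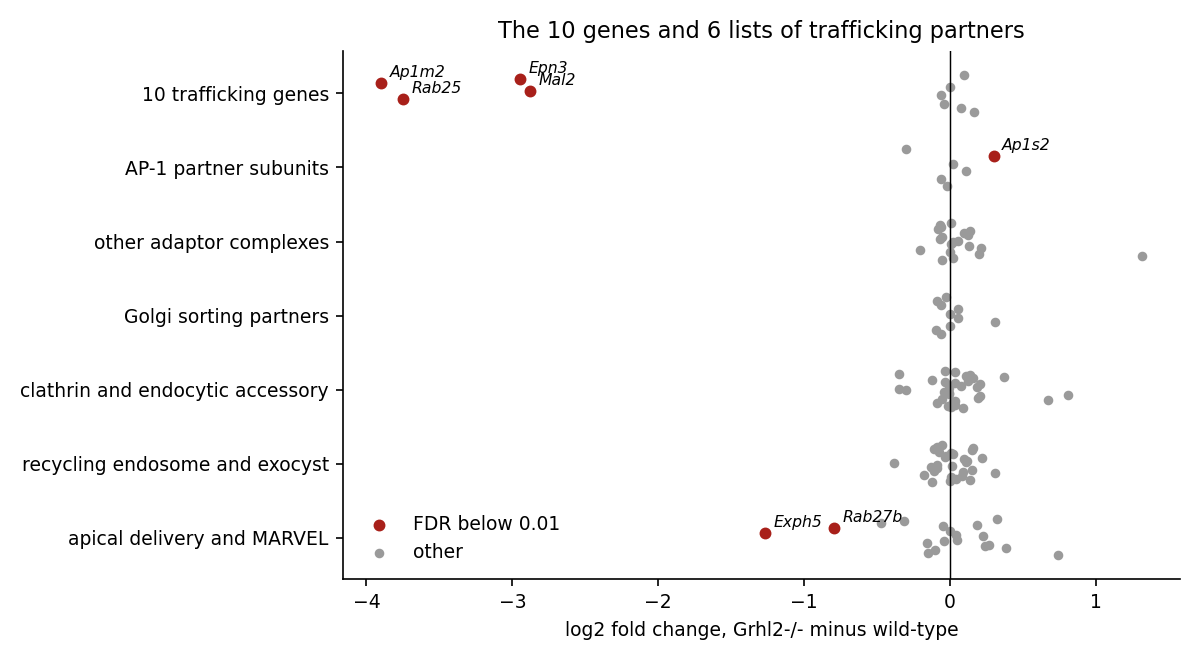
Log2 fold change (*Grhl2-/-* minus wild-type, limma-voom) of the 10 trafficking genes and of 117 partner genes in 6 lists, 1 point per gene, with genes at FDR below 0.01 in red and named. *Ap1m2*, *Rab25*, *Epn3* and *Mal2* lie at -3.90 to -2.88, and the called partners *Exph5*, *Rab27b* and *Ap1s2* at -1.27, -0.80 and 0.30.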

How the data were processed

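The PA1 of 5 wild-type and 5 *Grhl2-/-* embryos was sequenced by the authors from stranded, ribosome-depleted total RNA. They aligned the reads to GRCm38 with STAR and counted them with featureCounts, and deposited raw counts per gene. The versions of STAR and featureCounts and the handling of reads shared by paralogues are not given in the sources used here. A second deposited table holds the authors' own comparison and was not used.

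The 14561 genes that reached 10 counts in 1 or more arches were scaled by TMM and fitted with limma-voom (limma 3.58.1, edgeR 4.0.16, R 4.3.3) on genotype alone, with p-values adjusted by Benjamini and Hochberg's method (FDR), after tests on simulated data. Log2 CPM used a prior count of 0.5. Exon lengths and positions are from GENCODE M21. Total counts were 22188454 to 28801378, and the intervals named as counting intervals cover counting error only, whereas the 95% intervals of fold changes include the spread between embryos. The labels do not say that embryos came from separate litters.

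The 10 genes and all lists were chosen with earlier results of these data known. Named partners passed FDR 0.01 or had the lowest p of their list, except *Ap1g1*, *Ap1b1*, *Rab11b*, *Rab27a*, *Mal*, *Mall* and *Hip1*. *Hip1* was named because DESeq2 called it, and the others as subunits or relatives of genes described beside them. As alternatives, DESeq2 1.42.0, the quasi-likelihood test of edgeR, library size alone, median-of-ratios factors, other count filters, quality weights, the label number as a block, FDR 0.05, no length correction and leaving out arches were tried.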

Additional observations from a re-analysis of the deposited data

How the results depend on the processing

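Over 9 alternative fits the log2 fold change was -3.99 to -3.49 for *Ap1m2*, -2.99 to -2.92 for *Epn3*, -4.09 to -3.49 for *Rab25* and -3.05 to -1.92 for *Mal2*, which describes the values on which the set was selected and adds no evidence for them. Among partner genes, *Exph5* was called in all 9 (-1.27 to -1.11) and in all 10 fits without 1 arch. Against 158 lower and 128 higher genes, DESeq2 gave 553 and 520, an FDR below 0.05 gave 564 and 559, quality weights raised the higher genes to 204, and fits without 1 arch gave 110 to 249 lower and 42 to 143 higher genes. Of the partner genes, 1 to 2 were lower and 0 to 1 higher without 1 arch, 3 were lower and 3 higher by DESeq2, and 3 were lower and 2 higher at an FDR below 0.05. Without wild-type arches 1 and 2, an alternative added after seeing the data, 90 genes were lower and 19 higher, 3 of the 10 trafficking genes were lower, and 1 partner gene was lower and 0 were higher. With the label number as a replicate block the counts were 69 and 60 genes, 3 of the 10 trafficking genes, and 1 and 0 partner genes, with *Mal2* (-1.92), *Ap1s2* (FDR 0.0368) and *Rab27b* (FDR 0.0119) no longer called. Numbers 628 and 604 occur only in *Grhl2-/-* arches 2 and 5, so in that fit these arches do not inform the difference between genotypes. The meaning of the number is not given in the labels, and although the methods say that littermates served as controls where this could be done, no source used here ties the number to a litter. Deviations of the 5 pairs of same-numbered arches correlated at -0.237 to 0.420 (mean 0.105, against -0.0253 for the 20 other pairs), 3 pairs were above 0.1, and 4 of 8 arches correlated best with their own number. These correlations cannot settle whether a number stands for a litter, since tissue content also varied within a number. Sensory neuron markers summed to 43.3 and 766 CPM in wild-type arches 1 and 4, both numbered 566. With no meaning given for it, the number was not taken as a pairing. Other causes of the shifts between fits were not tested. Without length correction, the share of *Epn3* in the epsins was 2.97% in wild-type and 0.385% in *Grhl2-/-* arches, and that of *Rab25* in the Rab11 family was 1.52% and 0.111%. No scaling moved the median log2 fold change of all genes by more than 0.0178. At 1 to 6 reads per mutant arch, depth limits the fold change of *Rab25*.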
